A study of Homo sapiens with 8 samples.

Results

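The 35 genes described here are glucose transporters, glycolytic enzymes, lactate exporters and other genes known to respond to hypoxia-inducible factor (HIF), out of 20263 genes in the count table. They were chosen by name from pathway knowledge, with earlier results of these data known. They fall into 21 glycolytic genes and 14 other HIF genes, which are reported apart. RNA was sequenced from the human liver cancer line MHCC-97H, epithelioid hepatocellular carcinoma cells grown in DMEM with serum. The cells had been kept for 24 hours with lenvatinib, a multikinase drug that blocks VEGF and FGF receptors among others, or with its solvent DMSO. There was 1 lenvatinib library at each of 40, 60, 80 and 100 µM and there were 4 DMSO libraries, numbered 1 to 4 as in the labels. All libraries come from this cell line. The labels do not say whether the libraries came from separate cultures, so p-values reflect library-to-library spread, which may be technical. The lenvatinib libraries differ in dose, so the spread and SD of that arm also hold any difference between doses.

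Glycolysis splits glucose into pyruvate in the cytosol and yields ATP and NADH, and lactate dehydrogenase regenerates the NAD+ it needs by turning pyruvate into lactate. HIF is a pair of a labile alpha subunit (HIF1A or EPAS1) and a stable partner. In oxygen, EGLN prolyl hydroxylases mark the alpha subunit for destruction. In low oxygen the pair binds hypoxia response elements, whose core is ACGTG or GCGTG, and raises transcription of glucose transporters, most glycolytic enzymes, VEGFA and genes for pH control and mitophagy. Liver tumours are known for high glycolytic enzyme levels, with HK2 taking the place of the glucokinase of normal hepatocytes.

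The 250 bases before the transcription start are shown for the 4 genes on which the results turn, apart from NDRG1. They come from RefSeq on GRCh38.p14, and 32 of the 35 members were found in that table. Capitals mark ACGTG or GCGTG on either strand (CACGT or CACGC when read along the gene), and each window ends at the base before the start.
LDHA, first of 2 starts, chr11:18394313-18394562, plus strand: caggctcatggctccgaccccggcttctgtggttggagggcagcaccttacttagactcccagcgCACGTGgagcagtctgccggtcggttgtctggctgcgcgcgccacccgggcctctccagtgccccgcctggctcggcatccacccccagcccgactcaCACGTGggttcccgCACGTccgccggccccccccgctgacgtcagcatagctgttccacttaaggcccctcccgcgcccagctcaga
CA9, chr9:35673678-35673927, plus strand: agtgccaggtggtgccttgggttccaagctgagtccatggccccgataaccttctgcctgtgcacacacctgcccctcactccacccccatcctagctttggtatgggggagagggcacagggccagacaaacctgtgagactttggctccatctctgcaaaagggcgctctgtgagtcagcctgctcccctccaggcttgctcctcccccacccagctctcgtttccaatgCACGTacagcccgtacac
EPAS1, chr2:46297157-46297406, plus strand: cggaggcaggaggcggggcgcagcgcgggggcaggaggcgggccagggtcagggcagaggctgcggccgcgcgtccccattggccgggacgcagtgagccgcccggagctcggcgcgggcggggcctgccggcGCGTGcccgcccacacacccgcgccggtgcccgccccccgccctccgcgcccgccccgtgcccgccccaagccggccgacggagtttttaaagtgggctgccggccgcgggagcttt
SLC2A1, chr1:42958869-42959118, minus strand: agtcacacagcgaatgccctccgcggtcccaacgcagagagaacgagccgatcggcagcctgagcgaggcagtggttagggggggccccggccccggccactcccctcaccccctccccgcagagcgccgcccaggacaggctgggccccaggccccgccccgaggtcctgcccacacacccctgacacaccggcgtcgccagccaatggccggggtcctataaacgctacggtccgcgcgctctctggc
The LDHA window holds 5 ACGTG matches counted on both strands, of which 4 lie in 2 copies of the palindrome CACGTG, read on both strands. CA9 has 1 such match, at position -18 from the start, and EPAS1 has 1 GCGTG match, at -117. SLC2A1 has neither word in this window. ACGTG on either strand was present before 16 of 45 listed starts of the glycolytic genes (35.6%) and before 5 of 15 starts of the other HIF genes (33.3%), against 18.5% of all 35116 promoters in the table. A match is a description of letters and shows no binding.

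The lenvatinib libraries held 30077668, 10181973, 37384578 and 34747706 counts at 40, 60, 80 and 100 µM, and the DMSO libraries 30635814 to 34240835. Libraries differed along the GC content of genes: the GC slope of a library is how much its log2 level, relative to the 8-library mean, changes with 10 percentage points more GC in a gene's longest transcript. It was 0.67, 1.82, -0.58 and -0.60 at 40 to 100 µM, against 0.28, -0.50, -0.99 and -0.10 in DMSO 1 to 4. The ranges of the arms overlapped, but the 40 and 60 µM slopes lay above every DMSO slope. The GC slope was thus not balanced between the arms. The test took the 11827 genes that averaged 1 CPM or more (CPM, read counts relative to the TMM-scaled library size) and was done with edgeR's quasi-likelihood test. A gene was called at a Benjamini-Hochberg adjusted p under 0.05 over all of these. One fit had no covariate, and the GC-adjusted fit had the GC slope of each library as a covariate. Of 6 markers of liver epithelium, KRT8 and KRT18 were abundant (KRT8 at 2382 to 8627 CPM), HNF4A was low, EPCAM was under the test filter, and ALB and AFP had 6 and 2 reads, all at 60 µM. HNF4A fell in the GC-adjusted fit (log2 fold change -2.42 ± 0.40, adjusted p = 0.0229), with 1.01 to 3.41 CPM under lenvatinib and 6.85 to 9.92 CPM in DMSO. Of 5 markers of blood, endothelium and fibroblasts, PTPRC was at 0 in every library. Summed, they stood at 37.6 to 58.2 CPM under lenvatinib and 41.5 to 46.3 CPM in DMSO, nearly all from COL1A1 and DCN. COL1A1 lay higher in all 4 lenvatinib libraries (31.97 to 42.4 CPM) than in DMSO (23.9 to 29.1 CPM). Per transcript length (TPM as deposited) its arms overlapped, at 5.46 to 11.5 under lenvatinib and 6.12 to 10.6 in DMSO. DCN, the other fibroblast marker, overlapped, at 3.08 to 15.4 CPM under lenvatinib and 10.0 to 21.3 CPM in DMSO. VWF overlapped as well, at 0 to 3.88 CPM under lenvatinib and 1.20 to 2.69 CPM in DMSO. The part of such shifts in the results below was not tested.

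Glycolytic transcripts made up a large share of the RNA in both arms. The 21 glycolytic genes together took 4.48, 4.69, 2.92 and 2.96% of all counts at 40, 60, 80 and 100 µM, against 4.29, 3.33, 2.46 and 3.85% in DMSO 1 to 4. The shares at 80 and 100 µM lay within the DMSO range, and those at 40 and 60 µM above it. The 14 other HIF genes took 0.0165 to 0.0543% under lenvatinib and 0.0332 to 0.0758% in DMSO. Per transcript length (TPM as deposited), GAPDH had the highest level of the 35 members, with 16170 ± 4308 TPM under lenvatinib and 13150 ± 2849 TPM in DMSO (SD, n = 4 libraries each). ENO1 followed with 7339 ± 1276 TPM under lenvatinib and 7412 ± 1345 TPM in DMSO. PKM, TPI1 and ALDOA stood next at 2427 to 2697 TPM over the 8 libraries and did not differ from one another beyond their spread. The highest of the other HIF genes, NDRG1, came only 17th, and SLC2A3, CA9 and PDK1 were near 1 TPM or under it.

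**Figure D1:**
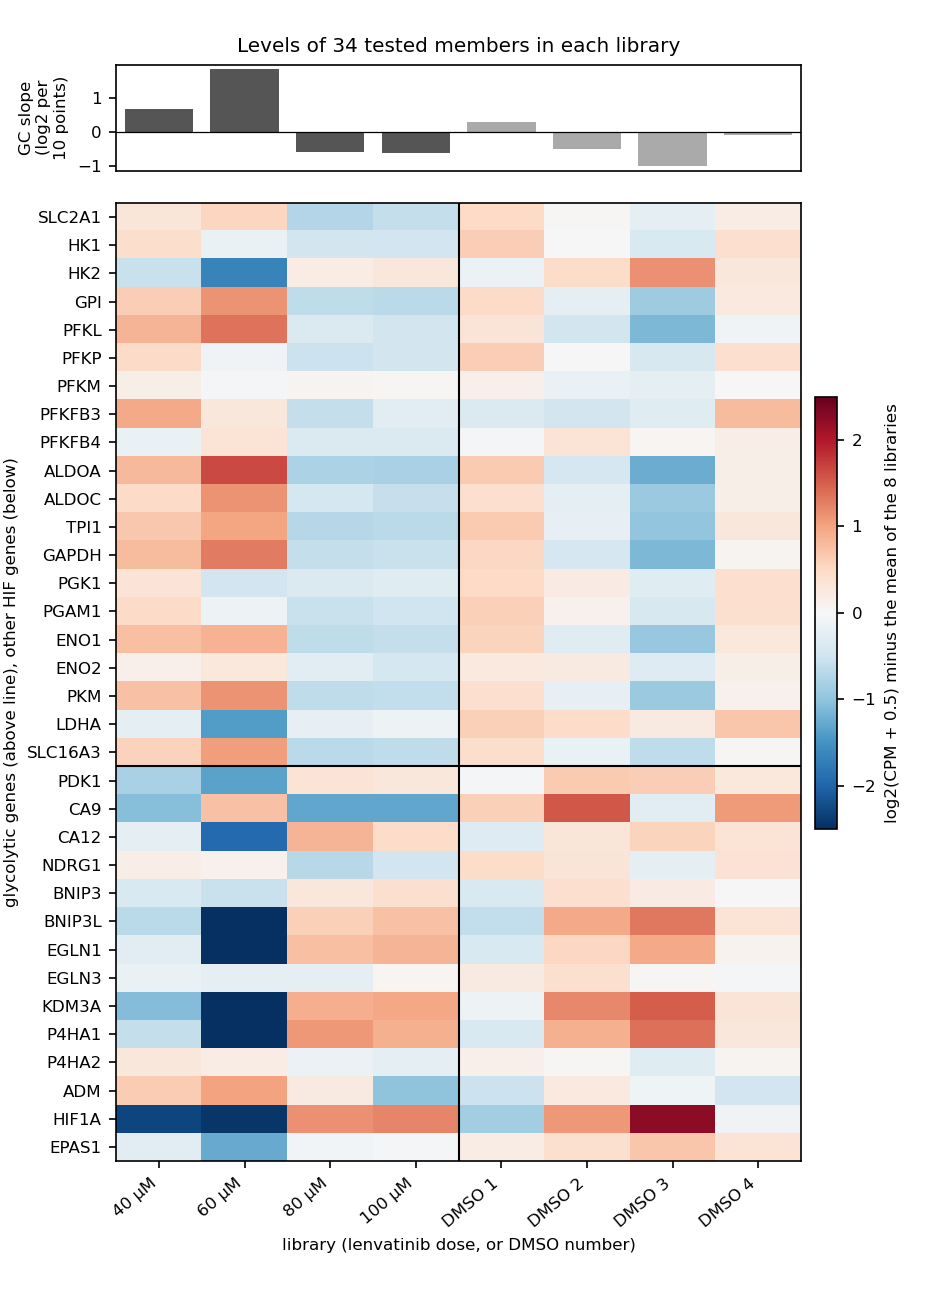
Levels of the 34 tested members (rows) in the 8 libraries (columns) as log2(CPM + 0.5) minus the gene's mean over the libraries, with colours ending at 2.5 either way; bars above give the GC slope of each library. The 40 and 60 µM columns, with GC slopes of 0.67 and 1.82, differ from the 80 and 100 µM columns for most members, and DMSO 3, with the lowest slope (-0.99), is lowest for GAPDH and highest for HIF1A.

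Without the covariate no gene of the 11827 was called (0%), and so no member. At an unadjusted p under 0.05 this fit had 523 genes, of which 370 were higher (3.13%) and 153 lower (1.29%), and among them were LDHA and EPAS1, both lower. With DESeq2 94 genes passed (0.795%; 0.499% higher and 0.296% lower), none of them a member, and with limma-voom 0. The glycolytic genes had a median log2 fold change of 0.17, with 9 of 20 negative, and the other HIF genes one of -0.44, with 12 of 14 negative. The median over all genes tested was -0.11, with 56.2% negative. The glycolytic median was -0.042 when libraries were scaled by their totals, -0.038 without the 40 µM library, -0.11 without the 60 µM library and -0.57 with only the 80 and 100 µM libraries. In the GC-adjusted fit, 386 genes were called (3.26%), of which 175 were higher (1.48%) and 211 lower (1.78%). With scaling by library totals, the same fit called 421 higher and 253 lower. Of the 34 tested members 3 were called, all lower: SLC2A1, NDRG1 and CA9. CA9 passed the filter through its DMSO libraries, so its direction adds no support. DESeq2 with the covariate called 12 members, all lower (9 glycolytic genes and 3 other HIF genes), among 2038 genes (17.2%; 6.75% higher and 10.5% lower). For the glycolytic genes the median log2 fold change in this fit was -0.35, with 18 of 20 negative and 9 of 20 lower at an unadjusted p under 0.05. For the other HIF genes it was -0.11, with 9 of 14 negative. Over all genes it was -0.063, with 57.2% negative, and 11.9% were lower and 8.39% higher at an unadjusted p under 0.05. Scaling by library totals moved the median of all genes by 0.12 in this fit, and relative to that median the glycolytic genes stood at -0.28 under either scaling.

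**Figure D2:**
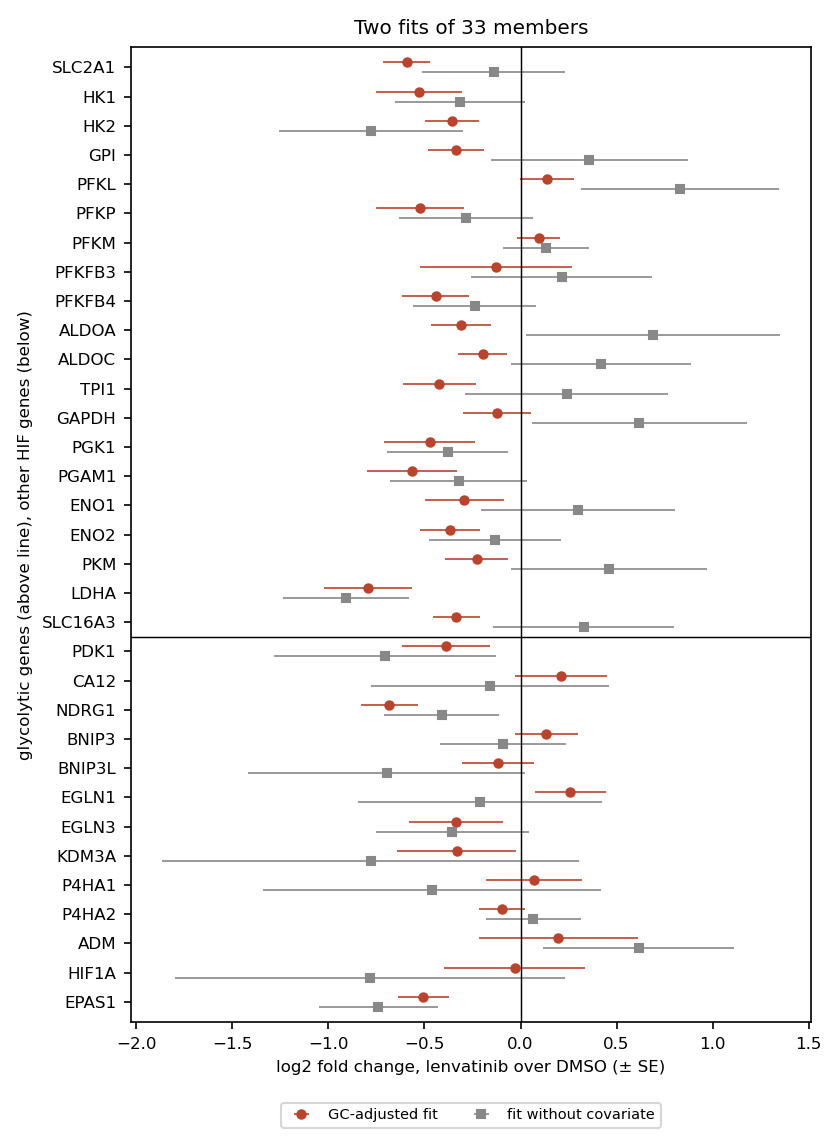
Log2 fold change (x axis, lenvatinib over DMSO, with standard errors as bars) of 33 tested members in the GC-adjusted fit (red circles) and in the fit without a covariate (grey squares); CA9, at -5.92 in the GC-adjusted fit, is off the scale and left out. With the covariate, 18 of 20 glycolytic genes lie left of zero, against 9 of 20 without it, and the bars of most genes are shorter.

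Glucose enters most tumour cells through SLC2A1 (GLUT1), the main basal glucose transporter. SLC2A1 (ENSG00000117394; GENCODE v29 on GRCh38, chromosome 1, 42925375 to 42959176, minus strand) was at 289, 341, 140 and 154 CPM at 40, 60, 80 and 100 µM, against 332, 237, 200 and 266 CPM in DMSO 1 to 4. On this scale the arms overlapped, with the 40 and 60 µM libraries inside or above the DMSO range and the 80 and 100 µM libraries below it. SLC2A1 fell in the GC-adjusted fit (log2 fold change -0.59 ± 0.12, SE; edgeR adjusted p = 0.0444), while the fit without the covariate gave -0.14 ± 0.37 (adjusted p = 0.899). In TPM as deposited, where each library is scaled to the same sum per transcript length, SLC2A1 was at 101, 98.6, 92.4 and 101 TPM under lenvatinib, against 128.5, 137, 146 and 125 TPM in DMSO. Here the arms did not overlap, at 98.3 ± 4.09 TPM under lenvatinib and 134 ± 9.56 TPM in DMSO (SD, n = 4 each). The call was lost without the 80 µM library, without the 100 µM library and without any 1 DMSO library (adjusted p = 0.0698 to 0.292). It was also lost with no filter (adjusted p = 0.0673) and with the replicate block (adjusted p = 0.0761). In bulk RNA, fewer cells that express a gene and less RNA per cell cannot be told apart. SLC2A3 (GLUT3), a high-affinity transporter, was under the filter, with 14, 0, 21 and 22 reads under lenvatinib and 10, 35, 41 and 20 reads in DMSO. Summed over the arm, these are 0.507 CPM by library totals under lenvatinib (exact Poisson interval 0.384 to 0.657, 95%, counting error only) and 0.824 in DMSO (0.675 to 0.997).

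The upper enzymes of glycolysis consume ATP to phosphorylate and split the sugar. They had no member called in the TMM-scaled edgeR fits of all 8 libraries, with or without the covariate. With only the 80 and 100 µM libraries against DMSO, the GC-adjusted edgeR fit called 10 of 20 glycolytic genes lower, and PFKL and PFKM higher. Over all genes that fit called 11% lower and 9.67% higher. DESeq2 with the covariate called 5 of the upper enzymes lower (HK1, GPI, PFKP, ALDOA and TPI1), against 10.5% of all genes. GPI was also called with DESeq2 size factors within edgeR (adjusted p = 0.0473), among 1015 of 11827 genes. HK1, the constitutive hexokinase that traps glucose in the cell, was at 301, 199, 162 and 158 CPM under lenvatinib, against 342, 225, 170 and 297 CPM in DMSO. HK2, its inducible paralog on the mitochondrial surface, was at 14.8, 6.62, 25.2 and 27.0 CPM under lenvatinib, against 19.9, 30.6, 49.3 and 26.8 CPM in DMSO. Both arms overlapped for either gene, and HK1 was the more abundant of the pair in every library, by 9.20 to 49.0 times per length (TPM) under lenvatinib and 5.51 to 27.6 times in DMSO. Their GC-adjusted values were -0.53 ± 0.23 for HK1 (adjusted p = 0.232) and -0.36 ± 0.14 for HK2 (adjusted p = 0.206). TPI1, which interconverts the triose phosphates and had the highest TPM of this class, was at 2941, 3618, 1111 and 1144 CPM under lenvatinib, against 2880, 1590, 922 and 2234 CPM in DMSO. ALDOA, the muscle-type aldolase that most tumours use to cleave the sugar, was at 3575, 6397, 1175 and 1158 CPM under lenvatinib and 3201, 1515, 866 and 2252 CPM in DMSO. ALDOC, the brain-type aldolase, was at 84.9, 132, 44.8 and 40.6 CPM under lenvatinib and 81.4, 50.8, 31.7 and 67.0 CPM in DMSO. For all 3 genes the 60 µM library was highest and DMSO 3 lowest. GPI, which converts glucose 6-phosphate to fructose 6-phosphate, had the same extremes, at 858 to 2969 CPM under lenvatinib and 740 to 1904 CPM in DMSO. The phosphofructokinases, which catalyse the committed step, did not share a sign. Platelet-type PFKP had a GC-adjusted log2 fold change of -0.52 ± 0.23 (adjusted p = 0.245), while liver-type PFKL and muscle-type PFKM were the only glycolytic genes above zero in that fit, at 0.14 ± 0.14 and 0.095 ± 0.11 (adjusted p = 0.630 and 0.692).

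PFKFB3 and PFKFB4 make and break the allosteric activator of phosphofructokinase and are known HIF targets. PFKFB3 was at 37.3, 23.3, 12.5 and 15.5 CPM under lenvatinib, against 14.7, 13.8, 15.4 and 33.7 CPM in DMSO. PFKFB4 was at 15.2, 21.6, 13.0 and 13.1 CPM under lenvatinib and 16.7, 21.6, 17.7 and 19.2 CPM in DMSO. For PFKFB3 a library of each arm stood above the rest (40 µM and DMSO 4), and the GC-adjusted value was -0.13 ± 0.39 (adjusted p = 0.899), whereas for PFKFB4 it was -0.44 ± 0.18 (adjusted p = 0.206).

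The lower enzymes, which recover ATP and NADH, include the most abundant transcripts of the pathway. GAPDH, which reduces NAD+ at the triose step and is often used as a reference gene, was at 23870, 33930, 9044 and 9336 CPM under lenvatinib, against 19700, 10280, 6349 and 14450 CPM in DMSO. It spanned 5.34-fold over the 8 libraries, and neither fit called it (GC-adjusted log2 fold change -0.12 ± 0.18, adjusted p = 0.752). ENO1, the enolase of most tissues, was at 12720, 13840, 4873 and 5007 CPM under lenvatinib and 11150, 6122, 3924 and 9011 CPM in DMSO. ENO2, the neuronal enolase, was at 15.7, 17.4, 11.8 and 10.4 CPM under lenvatinib and 17.2, 16.96, 11.3 and 16.0 CPM in DMSO. The arms overlapped for both, with GC-adjusted values of -0.29 ± 0.21 for ENO1 (adjusted p = 0.467) and -0.37 ± 0.16 for ENO2 (adjusted p = 0.227). PKM, pyruvate kinase, ranged over 2221 to 7481 CPM under lenvatinib and 1807 to 4602 CPM in DMSO. PGK1 and PGAM1, which carry the phosphoglycerates between GAPDH and enolase, overlapped between the arms in CPM and did not overlap in TPM as deposited. PGK1 was at 439, 201, 494 and 501 TPM under lenvatinib, against 537, 646, 576 and 609 TPM in DMSO. PGAM1 was at 853, 451, 763 and 770 TPM under lenvatinib and 1018, 1078, 960 and 1067 TPM in DMSO. Neither was called in the edgeR fits of all 8 libraries, with GC-adjusted values of -0.47 ± 0.24 (adjusted p = 0.306) for PGK1 and -0.56 ± 0.23 (adjusted p = 0.222) for PGAM1.

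Of the lactate genes, LDHA, the lactate dehydrogenase subunit that favours lactate formation, stood apart between the arms. LDHA (ENSG00000134333; chromosome 11, 18394388 to 18408425, plus strand) was at 564, 253, 583 and 615 CPM at 40, 60, 80 and 100 µM, against 1015, 926, 780 and 1082 CPM in DMSO 1 to 4. All 4 lenvatinib libraries lay below all 4 DMSO libraries, with means of 504 ± 169 CPM and 951 ± 130 CPM (SD, n = 4 each). Among all genes tested, 3.39% lay below in this way and 3.08% above. The difference did not pass the adjusted threshold, with a log2 fold change of -0.79 ± 0.23 in the GC-adjusted fit (adjusted p = 0.104) and -0.91 ± 0.33 without the covariate (adjusted p = 0.874). It was -0.90 to -0.55 over 16 alternatives to the GC-adjusted fit and passed in 5 of them. These were DESeq2 (adjusted p = 0.000564), DESeq2 size factors within edgeR (0.0278), the fits without the 40 µM library (0.0493) or without the 60 µM library (0.00253), and the 80 and 100 µM libraries alone (0.0043). SLC16A3 (MCT4), the HIF-inducible lactate exporter, had overlapping arms, at 232 to 765 CPM under lenvatinib and 239 to 504 CPM in DMSO, and a GC-adjusted value of -0.33 ± 0.12 (adjusted p = 0.184). Counted on the TMM scale, LDHA was thus the 1 glycolytic gene without overlap. On the deposited TPM, 6 of 20 lay below without overlap (SLC2A1, HK1, PFKP, PGK1, PGAM1 and LDHA) and 0 above, against 4% of all genes below and 4.84% above. On CPM by library totals, 3 glycolytic genes did so (LDHA, PGK1 and SLC2A1), against 3.49% of all genes below and 4.96% above.

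**Figure D3:**
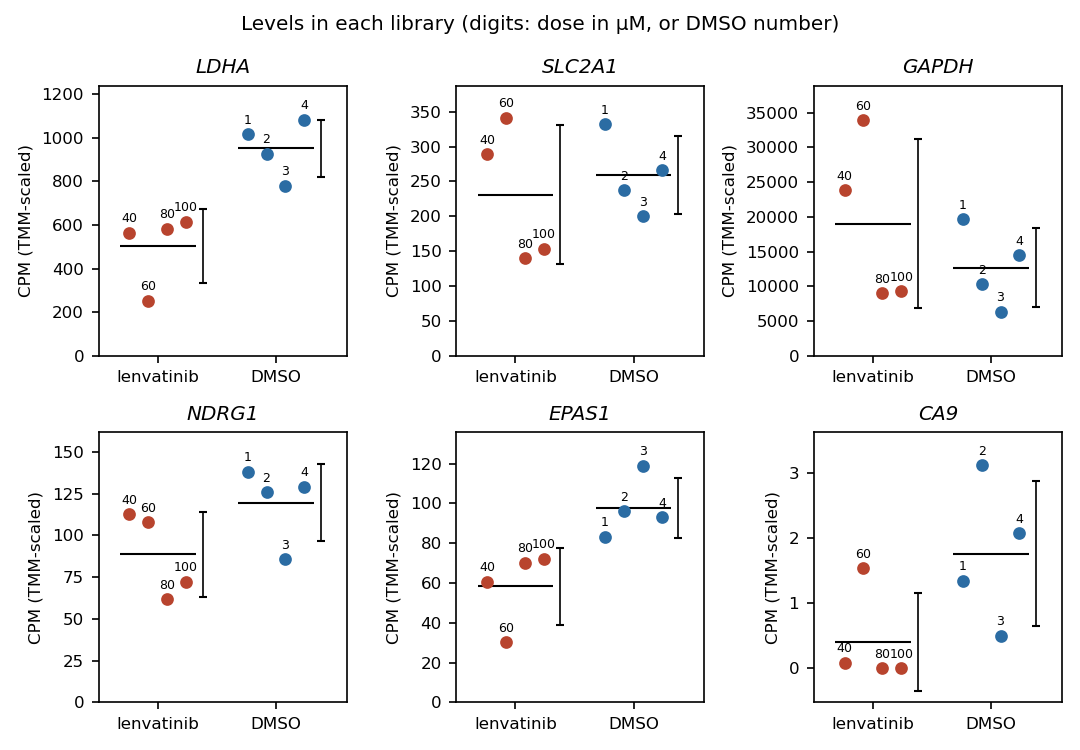
TMM-scaled CPM of 6 members in each library (points, labelled with the dose in µM or the DMSO number), with the mean of each arm (line) and its SD over 4 libraries (bar at the right of the points; for CA9 it runs below zero). LDHA and EPAS1 do not overlap between the arms, whereas for SLC2A1, GAPDH and NDRG1 the 80 and 100 µM points lie below the 40 and 60 µM points.

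Among the other HIF genes are the alpha subunits EPAS1 and HIF1A, and whether their changes differ from each other was not tested. EPAS1 (HIF2A; ENSG00000116016; chromosome 2, 46293667 to 46386703, plus strand), the alpha subunit prominent in endothelium and in kidney and liver cells, was at 60.6, 30.2, 70.3 and 72.1 CPM under lenvatinib, against 83.2, 96.2, 119 and 93.2 CPM in DMSO. As for LDHA, all 4 lenvatinib libraries lay below all 4 DMSO libraries (58.3 ± 19.4 CPM and 97.9 ± 15.1 CPM, SD, n = 4 each). Its GC-adjusted log2 fold change was -0.51 ± 0.13 and missed the threshold (adjusted p = 0.0781), and without the covariate it was -0.74 ± 0.31 (adjusted p = 0.874). EPAS1 passed in 7 of 16 alternatives to the GC-adjusted fit: DESeq2 (adjusted p = 2.07e-05), limma-voom (0.0348), DESeq2 size factors within edgeR (0.0199), a filter at 5 CPM (0.0452), without the 40 µM library (0.017) or the 60 µM library (0.00352), and with the 80 and 100 µM libraries alone (0.00458). In TPM as deposited the arms of EPAS1 overlapped, at 5.86 to 31.6 TPM under lenvatinib and 22.03 to 59.5 TPM in DMSO. HIF1A, the ubiquitous alpha subunit, was at 2.90, 2.62, 36.5 and 38.4 CPM under lenvatinib, against 8.72, 35.1, 79.0 and 15.2 CPM in DMSO. It spanned 30.2-fold over the libraries, had the lowest GC content of the members (36.4%) and was lowest in the 3 libraries of highest GC slope. The GC-adjusted value was -0.030 ± 0.37 (adjusted p = 0.974), and without the covariate it was -0.78 ± 1.015 (adjusted p = 0.874). Per length, EPAS1 exceeded HIF1A in every library, by 1.45 to 16.1 times under lenvatinib and 1.15 to 7.26 times in DMSO.

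The HIF hydroxylases and the other HIF-inducible oxygenases were not called in the edgeR fits of all 8 libraries. EGLN1 (PHD2), the main HIF prolyl hydroxylase, was at 37.97, 7.55, 77.0 and 82.8 CPM under lenvatinib, against 34.7, 65.8, 88.5 and 48.8 CPM in DMSO. EGLN3 (PHD3), a strongly hypoxia-inducible paralog, was at 1.96, 1.85, 1.86 and 2.36 CPM under lenvatinib and 2.73, 3.15, 2.32 and 2.19 CPM in DMSO. In the GC-adjusted fit EGLN1 had a value of 0.26 ± 0.18 (adjusted p = 0.469) and EGLN3 one of -0.33 ± 0.25 (adjusted p = 0.483). Without the 60 µM library EGLN1 was called higher (0.31, edgeR adjusted p = 0.0221). KDM3A, a histone H3 lysine demethylase induced by HIF, was at 2.56, 0, 11.7 and 12.3 CPM under lenvatinib and 5.49, 14.6, 18.0 and 7.66 CPM in DMSO. P4HA1, a catalytic subunit of the collagen prolyl hydroxylase, was at 8.14, 0.616, 27.3 and 23.5 CPM under lenvatinib and 9.56, 23.6, 33.5 and 15.4 CPM in DMSO. P4HA2, its paralog, was at 65.8, 62.1, 49.2 and 45.4 CPM under lenvatinib and 59.4, 55.3, 43.7 and 56.8 CPM in DMSO. The 60 µM library was thus the lowest for EGLN1, EGLN3, KDM3A and P4HA1, and P4HA2 varied by 1.51-fold over the libraries. Arms overlapped for all of these genes.

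In pH control, CA9 and CA12 are membrane carbonic anhydrases that hydrate carbon dioxide outside the cell, and CA9 is a classic HIF1A target. CA9 (ENSG00000107159; chromosome 9, 35673856 to 35681159, plus strand) was near the limit of detection, with 2, 10, 0 and 0 reads at 40, 60, 80 and 100 µM, against 37, 110, 21 and 69 reads in DMSO 1 to 4. Summed over the arm this was 12 reads under lenvatinib, or 0.107 CPM by library totals (exact Poisson interval 0.0552 to 0.187, counting error only), and 237 reads in DMSO, or 1.84 CPM (1.61 to 2.09). CA9 fell in the GC-adjusted fit (adjusted p = 0.0361). The fitted log2 fold change of -5.92 ± 1.14 rests on libraries with no reads and is no measure of size, and without the covariate it was -2.51 ± 1.65 (adjusted p = 0.874). TMM-scaled values overlapped between the arms: the 60 µM library, the shallowest, stood at 1.54 CPM with its 10 reads, within the DMSO range of 0.503 to 3.12 CPM. CA9 passed the filter through its DMSO libraries, and its call was lost without the 80 µM, the 100 µM or the DMSO 3 library (adjusted p = 0.229, 0.204 and 0.0652). Without DMSO 2 or DMSO 4 it was under the filter. ARHGEF39 overlaps CA9 on the opposite strand and had 94 to 781 reads per library; whether reads were counted by strand is not given in the sources used here, so the reads of this pair may not be fully told apart. CA12 was at 5.11, 1.23, 11.4 and 8.61 CPM under lenvatinib, against 4.76, 7.66, 9.27 and 7.84 CPM in DMSO, with overlapping arms (GC-adjusted log2 fold change 0.21 ± 0.24, adjusted p = 0.674).

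NDRG1, a stress-response protein whose transcript is strongly hypoxia-inducible, was the third member called. It was at 113, 108, 61.8 and 72.4 CPM under lenvatinib, against 138, 126, 85.7 and 129 CPM in DMSO. On this scale the 80 and 100 µM libraries lay below the DMSO range and the 40 and 60 µM libraries within it. By library totals all 4 lenvatinib libraries of NDRG1 lay below DMSO, as for 3.49% of all genes tested. In TPM as deposited its arms overlapped narrowly, at 38.85 to 55.94 under lenvatinib and 55.87 to 77.44 in DMSO. NDRG1 fell in the GC-adjusted fit (log2 fold change -0.68 ± 0.15, adjusted p = 0.0486), while the fit without the covariate gave -0.41 ± 0.30 (adjusted p = 0.874). Its call was lost without the 80 µM library, without the 100 µM library and without any 1 DMSO library (adjusted p = 0.0583 to 0.293), with no filter (adjusted p = 0.0687) and with the replicate block (adjusted p = 0.0718).

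Genes of mitophagy, pyruvate entry and secretion showed no call. BNIP3, a mitophagy receptor, was at 20.7, 18.5, 33.2 and 36.2 CPM under lenvatinib, against 20.8, 36.7, 31.6 and 27.3 CPM in DMSO. BNIP3L (NIX), its paralog, was at 11.3, 2.46, 27.7 and 30.5 CPM under lenvatinib and 11.7, 35.8, 46.2 and 23.1 CPM in DMSO. Both overlapped between the arms, with GC-adjusted values of 0.14 ± 0.16 for BNIP3 (adjusted p = 0.693) and -0.12 ± 0.19 for BNIP3L (adjusted p = 0.773). PDK1, the HIF-induced kinase that shuts pyruvate dehydrogenase, was at 1.11, 0.616, 3.06 and 2.91 CPM under lenvatinib and 2.25, 3.88, 3.81 and 2.85 CPM in DMSO (GC-adjusted -0.39 ± 0.23, adjusted p = 0.384). ADM, the secreted peptide adrenomedullin, was at 17.1, 22.2, 12.8 and 5.16 CPM under lenvatinib and 7.30, 13.0, 10.0 and 7.69 CPM in DMSO (0.20 ± 0.41, adjusted p = 0.840). In ADM the 40 and 60 µM libraries stood above the DMSO range and the 100 µM library below it.

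The members' spread over libraries followed their GC content. Among the 34 tested members, the log2 level per unit of library GC slope had a Pearson r of 0.81 with the GC content of the longest transcript, and over 11823 tested genes it was 0.77. This is a correlation across genes that share the same 8 libraries, given as a description. Glycolytic genes had GC contents of 43.3 to 64.1% (median 54.5%) and the other HIF genes 36.4 to 60.1% (median 49.2%), against a median of 49.1% over all genes tested. ALDOA had the highest value of the members (1.06 per unit of slope) and KDM3A the lowest (-2.82). LDHA differed from most glycolytic genes in its low GC content (44.0%) and a value of -0.50 per unit, and PGK1, at 43.3%, stood at 0.012.

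**Figure D4:**
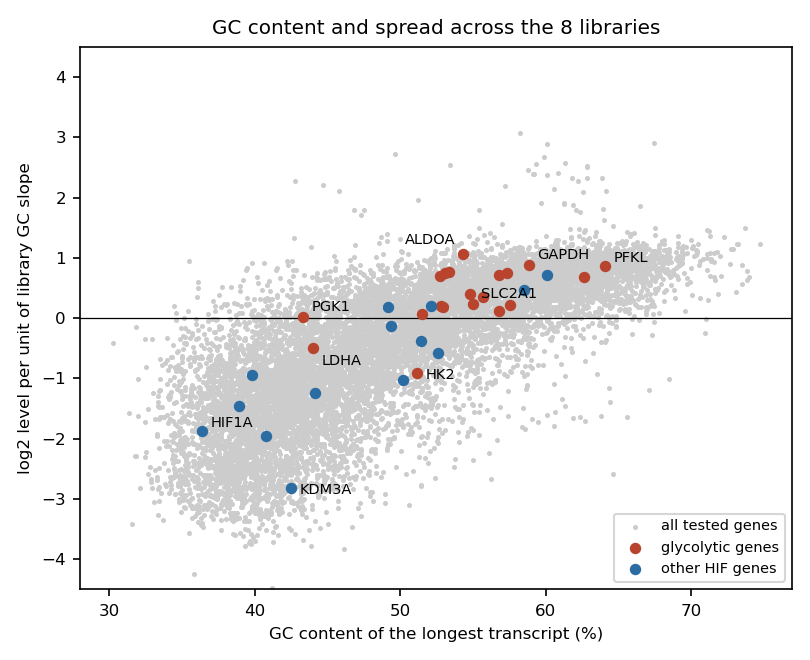
GC content of each gene's longest transcript (x axis, %) against its log2 level per unit of library GC slope (y axis) for the tested genes (grey), the glycolytic genes (red) and the other HIF genes (blue). Members follow the course of all genes; ALDOA is at 1.06, LDHA at -0.50 and KDM3A at -2.82.

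Set beside a DMSO library of similar GC slope, the 80 and 100 µM libraries (slopes -0.58 and -0.60) can be read without a covariate against DMSO 2 (-0.50). This choice of libraries was made after their values were seen, has 1 library a side and carries no test. Of the 20 tested glycolytic genes, 17 were lower than in DMSO 2 at both doses, against 43.5% of all genes tested. The median ratio of the glycolytic genes was 0.729 at 80 µM and 0.740 at 100 µM, against 0.983 and 0.988 for all genes. SLC2A1 had ratios of 0.589 and 0.648, LDHA 0.629 and 0.663, PGAM1 0.624 and 0.652, and GAPDH 0.880 and 0.909. PFKM, at 1.18 and 1.15, was the 1 glycolytic gene above 1 at both doses. Of the other HIF genes 10 of 14 were lower at both doses, with NDRG1 at 0.491 and 0.575, EPAS1 at 0.731 and 0.750 and HIF1A at 1.04 and 1.096. At 40 µM, against DMSO 1 (less alike, with slopes of 0.67 and 0.28), 9 of 20 glycolytic genes were lower, with a median ratio of 1.02. LDHA was at 0.556 there. Of the other HIF genes 10 of 14 were lower, with a median ratio of 0.834. Over all genes tested 53.7% were lower, with a median ratio of 0.970. The 60 µM library had no DMSO library near its slope.

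**Figure D5:**
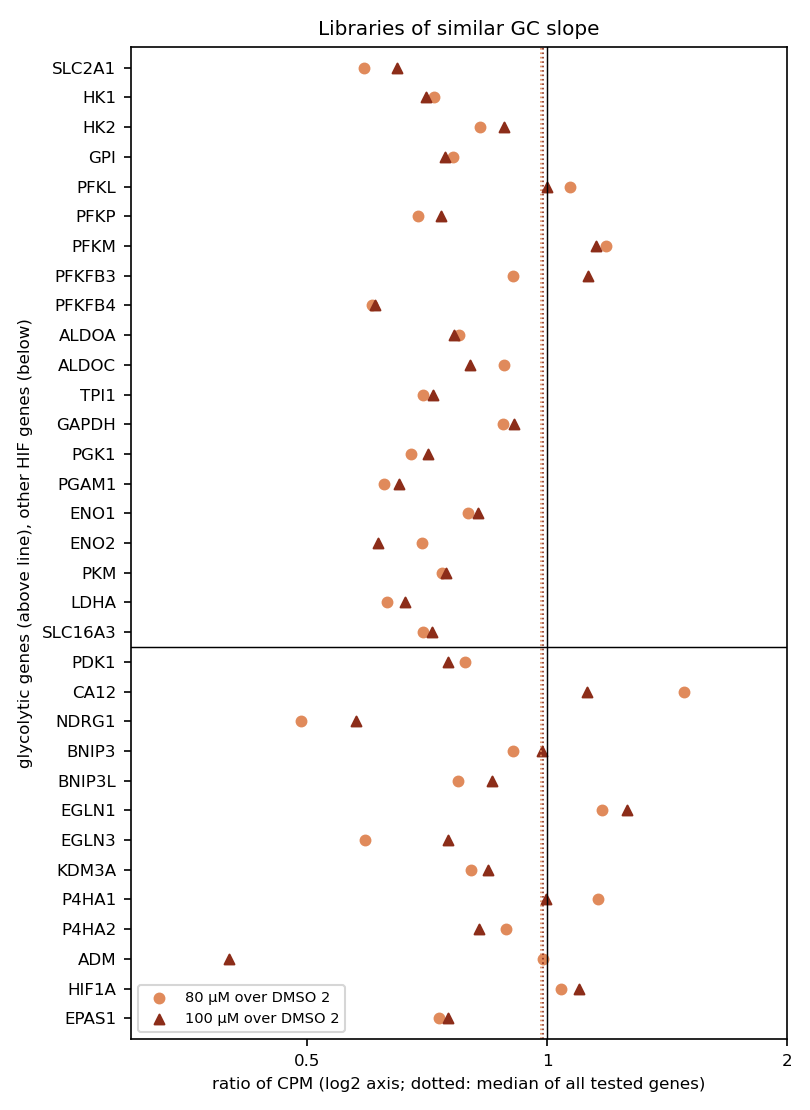
Ratio of TMM-scaled CPM (x axis, log2 scale) of the 80 µM (orange circles) and 100 µM (dark triangles) libraries to DMSO 2 for 33 tested members; CA9, at 0 in both lenvatinib libraries, is left out. Most glycolytic genes lie left of 1 and of the dotted medians of all tested genes (0.983 and 0.988).

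The GC-adjusted fit with only the 80 and 100 µM libraries against the 4 DMSO libraries called 15 of 34 members, among 2463 of 11914 genes (20.7%; 9.67% higher and 11% lower). Of the glycolytic genes 10 of 20 were lower and 2 higher (PFKL and PFKM), and of the other HIF genes 3 of 14 were lower (CA9, NDRG1 and EPAS1). CA9 had 0 reads at 80 and 100 µM and passed the filter through its DMSO libraries, so its direction adds no support. Without the 60 µM library alone, the same fit called 16 members among 2770 of 11864 genes (23.3%; 9.63% higher and 13.7% lower), with 11 glycolytic genes lower and 1 higher, and 3 other HIF genes lower and 1 higher. Both fits rest on fewer lenvatinib libraries. Without the covariate, neither choice of libraries called a gene (0%).

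The dose slope, which is the log2 change for each 20 µM among lenvatinib libraries, called no gene (0% of 11827) and no member. At an unadjusted p under 0.05 it had 638 genes with a positive slope (5.39%) and 237 with a negative one (2%), and DESeq2 called 131 genes, with no member among them. The median slope of the glycolytic genes was -0.45 per 20 µM, with 18 of 20 negative, and that of the other HIF genes 0.37, with 10 of 14 positive. HIF1A had the steepest positive slope of the members (1.49 ± 0.55 per 20 µM, edgeR adjusted p = 0.295). With 1 library a dose, dose and the GC slope, which was 0.67 and 1.82 at the lower doses and -0.58 and -0.60 at the higher, cannot be told apart for these genes.

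Further genes of the pathway came from a list of 76, of which 75 were in the table and 62 tested in all. Among 11 tested isoforms and regulators of glycolysis none was called in the GC-adjusted fit, with 6 of 11 negative. HKDC1, a hexokinase-like protein, was at 26.5, 8.47, 19.5 and 21.4 CPM under lenvatinib, against 41.4, 33.5, 38.6 and 39.1 CPM in DMSO. All 4 lenvatinib libraries of HKDC1 lay below DMSO, as for 3.39% of all genes tested (-0.87 ± 0.28, adjusted p = 0.130). TIGAR, a fructose bisphosphatase that opposes glycolysis, and ENO3, the muscle enolase, had values of -0.45 ± 0.18 (adjusted p = 0.203) and -0.31 ± 0.16 (adjusted p = 0.310). Among 11 genes of pyruvate entry into mitochondria none was called. The smallest p there belonged to PDK4, a pyruvate dehydrogenase kinase (0.65 ± 0.22, adjusted p = 0.157), PDHX, a component of that enzyme complex (-0.32 ± 0.13, adjusted p = 0.206) and PDK3, another such kinase (0.54 ± 0.23, adjusted p = 0.239).

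In gluconeogenesis, the reverse path from pyruvate to glucose, 1 of 3 tested genes was called, and it was higher, as were 1.48% of all genes tested. The list held 6 genes. G6PC had 0 reads in every library, and PCK1 and FBP1, with at most 6 and 9 reads in a library, were also under the filter. PC, the mitochondrial pyruvate carboxylase, was at 1025, 2255, 498 and 420 CPM under lenvatinib, against 533, 332, 207 and 443 CPM in DMSO. PC rose in the GC-adjusted fit (0.59 ± 0.11, adjusted p = 0.0362). On this scale its arms overlapped at 80 and 100 µM. In TPM as deposited all 4 lenvatinib libraries of PC lay above DMSO, at 231 to 547 against 134 to 179. On that scale 4.84% of all genes tested did so. PCK2, the mitochondrial phosphoenolpyruvate carboxykinase, was at 66.0, 184, 69.6 and 58.1 CPM under lenvatinib, against 50.7, 32.5, 20.1 and 38.1 CPM in DMSO. All 4 lenvatinib libraries of PCK2 lay above DMSO, as for 3.08% of all genes tested. PCK2 missed the threshold (0.92 ± 0.21, adjusted p = 0.0563). G6PC3, the ubiquitous glucose 6-phosphatase, had a value of -0.27 ± 0.11 (adjusted p = 0.232).

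Of 8 tested genes of oxygen sensing none was called, and 2 were negative. VHL, the ubiquitin ligase subunit that binds hydroxylated HIF alpha, had a GC-adjusted value of 0.43 ± 0.18 (adjusted p = 0.215). CITED2, which competes with HIF for its coactivator, had one of 0.39 ± 0.23 (adjusted p = 0.384), and EP300, that coactivator, one of -0.34 ± 0.21 (adjusted p = 0.405). Of 29 further HIF targets 1 was called, lower, and 17 were negative (58.6%), near the 1.78% called lower and 57.2% negative over all genes tested. JMJD6, a nuclear oxygenase, was at 33.3, 26.5, 22.6 and 24.9 CPM under lenvatinib, against 49.4, 37.6, 33.1 and 44.2 CPM in DMSO. JMJD6 fell (-0.72 ± 0.15, adjusted p = 0.0467), with the 40 µM library just above the lowest DMSO library in CPM. In TPM as deposited all 4 lenvatinib libraries of JMJD6 lay below DMSO, at 16.2 to 29.3 against 39.3 to 48.9. On that scale 4% of all genes tested did so. Without the 80 µM library the GC-adjusted edgeR fit called 0 genes, so the calls of PC, JMJD6 and HNF4A are lost there as well. BHLHE40, a transcriptional repressor of the circadian and hypoxic response, was at 47.4, 22.2, 46.5 and 51.1 CPM under lenvatinib, against 65.2, 82.8, 89.0 and 77.5 CPM in DMSO. On this scale all 4 lenvatinib libraries of BHLHE40 lay below DMSO, as for 3.39% of all genes tested. In TPM as deposited its arms overlapped, at 6.36 to 32.5 under lenvatinib and 25.6 to 65.6 in DMSO. BHLHE40 missed the threshold (-0.69 ± 0.16, adjusted p = 0.0547). LOX, which cross-links collagen, had a value of -0.78 ± 0.23 (adjusted p = 0.110), with overlapping arms. VEGFA, the best known HIF target and the ligand of receptors that lenvatinib inhibits, was at 16.0, 16.5, 21.3 and 18.9 CPM under lenvatinib, against 15.7, 14.9, 15.3 and 13.8 CPM in DMSO. On this scale all 4 lenvatinib libraries lay above DMSO in VEGFA, by a small margin, as for 3.08% of all genes tested. In TPM as deposited its arms overlapped, at 5.18 to 18.8 under lenvatinib and 8.16 to 15.6 in DMSO. VEGFA was not called (0.35 ± 0.14, adjusted p = 0.215).

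Counts of several members can be shared with copies. In GENCODE v29, 10 of the 21 glycolytic genes have named processed pseudogenes, 101 in all, of which 62 belong to GAPDH and 6 to LDHA, and BNIP3 has 39. None of these pseudogenes has a row in the table, and how reads that match several places were counted is not given in the sources used here. On the opposite strand, 12 glycolytic and 8 other HIF genes overlap another gene.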

How the data were processed

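RNA-seq of 8 MHCC-97H libraries (4 lenvatinib, 4 DMSO) was analysed. Per the file headers, the authors deposited whole-number read counts beside TPM and FPKM for each gene. Per the submitters' processing notes, FastQC, HISAT2, bedtools and StringTie were used with GRCh38. Which versions, annotation release, library kit and strand setting were used is not given in the sources used here. TPM deposited by the authors is a constant multiple of FPKM within each library. FPKM deposited by the authors was not used further. Counts were tested with edgeR 4.0.16 in R 4.3.3 (TMM, robust quasi-likelihood, Benjamini-Hochberg adjustment over 11827 genes), with 6 residual degrees of freedom, or 5 with the GC slope as covariate. The GC slope used log2 CPM with a prior count of 2 and the longest GENCODE v29 transcript (4 tested genes had none). DESeq2 1.42.0, limma-voom (limma 3.58.1), other scalings, filters, a replicate block and left-out libraries were alternatives.

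A count of 3, the limit that 0 counts allow, is 0.0802 to 0.295 CPM by library totals, for counting error only. Members and lists were chosen with earlier results of these data known. Values in every library are given for members called or without overlap, the highest-TPM member of each role and paralog pairs, and, in the wider list, for called genes and the 3 smallest p per role in short form. Same-numbered libraries of the arms correlated at 0.63, -0.46, 0.84 and -0.61 in their deviations from the arm means, so the numbers were not taken to pair them.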

Additional observations from a re-analysis of the deposited data

Results flagged for a closer look

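In 34 tested members and 2 arms (68 group tests), 4 libraries stood apart from the other 3 of their arm by Dixon's ratio at its 95% critical value; chance flags about 5% of groups. The LDHA level at 60 µM was the lowest of the lenvatinib arm, at 253 CPM. PGK1 was highest at 40 µM, at 1740 CPM. CA9 was highest at 60 µM, at 1.54 CPM from 10 reads. In the DMSO arm, PFKFB3 was highest in DMSO 4, at 33.7 CPM.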

How the results depend on the processing

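Without the covariate, DESeq2 called 94 genes and no other alternative called any. The glycolytic median turned to -0.57 with only the 80 and 100 µM libraries, -0.11 without the 60 µM library, -0.038 without the 40 µM library and -0.042 by library totals. SLC2A1 in that fit ranged from -0.41 to 0.045 with 1 library left out, and turned positive without the 80 µM library (0.045), the 100 µM library (0.020) or DMSO 1 (0.0053). DESeq2 called 131 dose slopes, and the other alternatives 0. In the GC-adjusted fit, against 386 genes and 3 members, DESeq2 called 2038 genes and 12 members, limma-voom 827 genes, DESeq2 size factors within edgeR 1015 genes and 6 members, library totals 674 genes, no filter 254 genes and 1 member, and the 80 and 100 µM libraries alone 2463 genes and 15 members. Leaving out 1 library at a time gave 0 to 2770 genes and 0 to 16 members: 0 genes without the 80 µM library, 9 without the 100 µM library, 18 without DMSO 4 and 2770 without the 60 µM library. The replicate block on the title numbers, which the correlations do not show to pair the libraries, gave 232 genes and 1 member, CA9, as did no filter for the members. Of 34 tested members, 6 lay below DMSO without overlap in deposited TPM and 4 by library totals, against 2 on the TMM scale. Over all genes tested the shares were 4%, 3.49% and 3.39%. The cause of these changes was not tested. The GC-adjusted sign held for 28 of 34 members in every alternative that tested the gene, and without the covariate for 14 of 34. There were 16 alternatives, of which 13 tested CA9 and 15 tested EGLN3 and PDK1. Depth limits CA9 and SLC2A3, and the 60 µM library, with 10181973 counts, gives the least precise values.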
